A study of Mus musculus with 30 samples.

Results

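Genes of coagulation, fibrinolysis and the inhibitors of both were followed in the livers of 30 mice. The set held 41 gene symbols, and each was read on 1 probe set, the brightest on average across the 30 arrays of those that name a single gene. A total of 36 of the 41 were measured in this way, out of 17097 genes tested on the array. The levels of Kng2, Adamts13, Cpb2, Ggcx and F2rl1 were not analysed here.

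The mice came from a study of drugs given to prevent liver cancer in a dietary model of non-alcoholic steatohepatitis, in which mice eat a choline-deficient high-fat diet (CD-HFD) and some develop hepatocellular carcinoma (HCC) and fibrosis. RNA was taken from liver outside the tumours. The groups were healthy mice on chow (Hlth, 5 mice), vehicle-treated mice on CD-HFD without HCC and fibrosis (Veh_low, 5), vehicle-treated mice on CD-HFD with HCC and fibrosis (Veh_high, 4), mice on CD-HFD given sulindac (Sulin, 10) and mice on CD-HFD given aspirin with clopidogrel (AspClo, 6). Sulindac is a cyclooxygenase inhibitor, aspirin inhibits cyclooxygenase in platelets irreversibly, and clopidogrel blocks the platelet ADP receptor P2Y12. Every mouse outside the healthy group had the same diet, so neither drug was measured on chow. The labels give no sex, strain, age, batch or time of collection. Each mouse is named by its group and animal number, and a level is a log2 intensity throughout.

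Hepatocytes make most of the circulating clotting factors and their inhibitors. Contact of tissue factor with factor VII, or activation of factors XII and XI, leads to factor X, then to thrombin, and thrombin turns fibrinogen into fibrin that factor XIII crosslinks. Antithrombin, heparin cofactor II and the protein C system hold thrombin in check, and plasmin, cut from plasminogen, dissolves fibrin until alpha-2-antiplasmin stops it. Thrombin also signals to cells through protease-activated receptors, of which F2r encodes PAR1; mouse platelets use other members of that family.

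2 sets of arrays stood apart and are given before the results. The mice AspClo_58, AspClo_61, AspClo_63 and AspClo_64 had Xist levels of 10.95 to 11.21 and levels of the Y-linked gene Eif2s3y of 4.14 to 5.21, against at most 5.03 for Xist and at least 8.37 for Eif2s3y in the other 26 mice. The other 2 mice of that group, AspClo_60 and AspClo_62, were like the remaining groups in both genes. Female-biased Cyp3a41a was 11.82 to 12.02 in the 4 mice with high Xist and at most 7.54 in all others, so the results on aspirin with clopidogrel are also given with a term for high Xist where a gene is described by its difference, which leaves the drug effect to be read from AspClo_60 and AspClo_62. Distances between arrays were taken over the genes whose mean was at or above that of the median gene. By these, Hlth_1798 and Hlth_1807 lay nearer to the vehicle mean than to the mean of their own group. Veh_low_794 and Veh_low_1819 lay nearer to the healthy mean. Whether labels were exchanged was not tested. Results without these 4 arrays are given too; leaving out mice chosen in this way widens the distance between the groups by construction.

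Of 10 hepatocyte markers 9 were measured, and none lay below the median gene. Of the 36 clotting genes, 28 had a mean at or above the median gene's mean of 4.90. The other 8 lay below it, namely F3, F13a1, Procr, Thbd, Serpina5, Plat, Plau and Plaur, and small changes in them are compressed by background signal. The brighter members varied little within groups, with a median SD of 0.112 on the log2 scale. It was 0.192 for all genes at or above the median gene, which were not matched to the members for level. Prothrombin (F2) had a within-group SD of 0.0413 and antithrombin (Serpinc1) 0.0503. The brightest members, with a mean of up to 12.85 for Fgb, lay near the upper end of the arrays, where Alb averaged 13.55. Whether small changes are compressed there was not tested. At the other end stood F2r at 0.362, F7 at 0.336, F8 at 0.330 and F11 at 0.320.

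Upstream sequences are shown for F2r and F10, 2 of the genes that passed the test below, and for the 3 fibrinogen genes, which lie beside one another on chromosome 3 and had similar values across the groups. Each is the 250 bases before the annotated start, from RefSeq on GRCm38.p6, on the gene's own strand and written 5′ to 3′. Capitals mark matches on either strand to AGGTCA (a site of nuclear receptors), to GTTAAT (part of an HNF1 site), to CTGGGA (the core of the IL-6 response element) or to TTGCNNAA (a C/EBP motif). The positions are chr13:95618467-95618716 (minus strand) for F2r, chr8:13037058-13037307 (plus) for F10, chr3:83007474-83007723 (plus) for Fgg, chr3:83025903-83026152 (plus) for Fga and chr3:83049864-83050113 (minus) for Fgb.
F2r: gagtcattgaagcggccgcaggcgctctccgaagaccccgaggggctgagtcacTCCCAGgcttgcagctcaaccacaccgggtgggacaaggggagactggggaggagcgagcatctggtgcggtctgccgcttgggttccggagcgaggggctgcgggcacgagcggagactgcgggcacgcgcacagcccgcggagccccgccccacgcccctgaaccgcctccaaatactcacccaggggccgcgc
F10: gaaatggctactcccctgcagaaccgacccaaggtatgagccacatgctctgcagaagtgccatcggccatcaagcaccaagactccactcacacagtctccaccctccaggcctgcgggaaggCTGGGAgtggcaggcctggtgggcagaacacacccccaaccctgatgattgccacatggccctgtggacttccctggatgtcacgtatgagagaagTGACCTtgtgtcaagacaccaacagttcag
Fgg: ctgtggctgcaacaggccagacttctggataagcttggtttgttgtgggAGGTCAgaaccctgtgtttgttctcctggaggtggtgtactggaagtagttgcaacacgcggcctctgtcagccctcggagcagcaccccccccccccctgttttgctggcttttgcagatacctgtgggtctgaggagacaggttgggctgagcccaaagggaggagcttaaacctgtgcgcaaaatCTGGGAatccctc
Fga: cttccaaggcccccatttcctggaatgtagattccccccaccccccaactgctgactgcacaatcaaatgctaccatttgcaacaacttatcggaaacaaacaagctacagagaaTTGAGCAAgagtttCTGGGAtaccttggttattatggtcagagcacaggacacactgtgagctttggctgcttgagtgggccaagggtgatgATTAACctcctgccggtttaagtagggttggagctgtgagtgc
Fgb: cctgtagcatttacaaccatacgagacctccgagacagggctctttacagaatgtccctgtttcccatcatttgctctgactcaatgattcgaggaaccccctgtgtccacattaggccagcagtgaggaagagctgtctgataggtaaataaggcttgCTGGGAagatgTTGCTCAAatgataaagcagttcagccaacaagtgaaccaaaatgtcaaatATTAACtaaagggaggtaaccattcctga

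The IL-6 core CTGGGA stood in all 5 of these windows. It was found in 15 of the 32 clotting genes whose windows were searched (46.9%) and in 29.8% of the 27025 genes of the table. The C/EBP motif was in 34.4% of the clotting genes and 10.8% of all genes, the nuclear receptor site in 28.1% and 15.8%, and the HNF1 site in 15.6% and 7.49%. Fga and Fgb both held the HNF1, IL-6 and C/EBP letters, whereas Fgg and F10 held those of the nuclear receptor site and the IL-6 core. The F2r window differed in base composition, with 70.8% G and C and 24 CpG dinucleotides against medians of 52.4% and 6 over all windows, and F10 had 57.6% and 4. A match to a short motif is a description of the letters and not of a bound site.

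**Figure D1:**
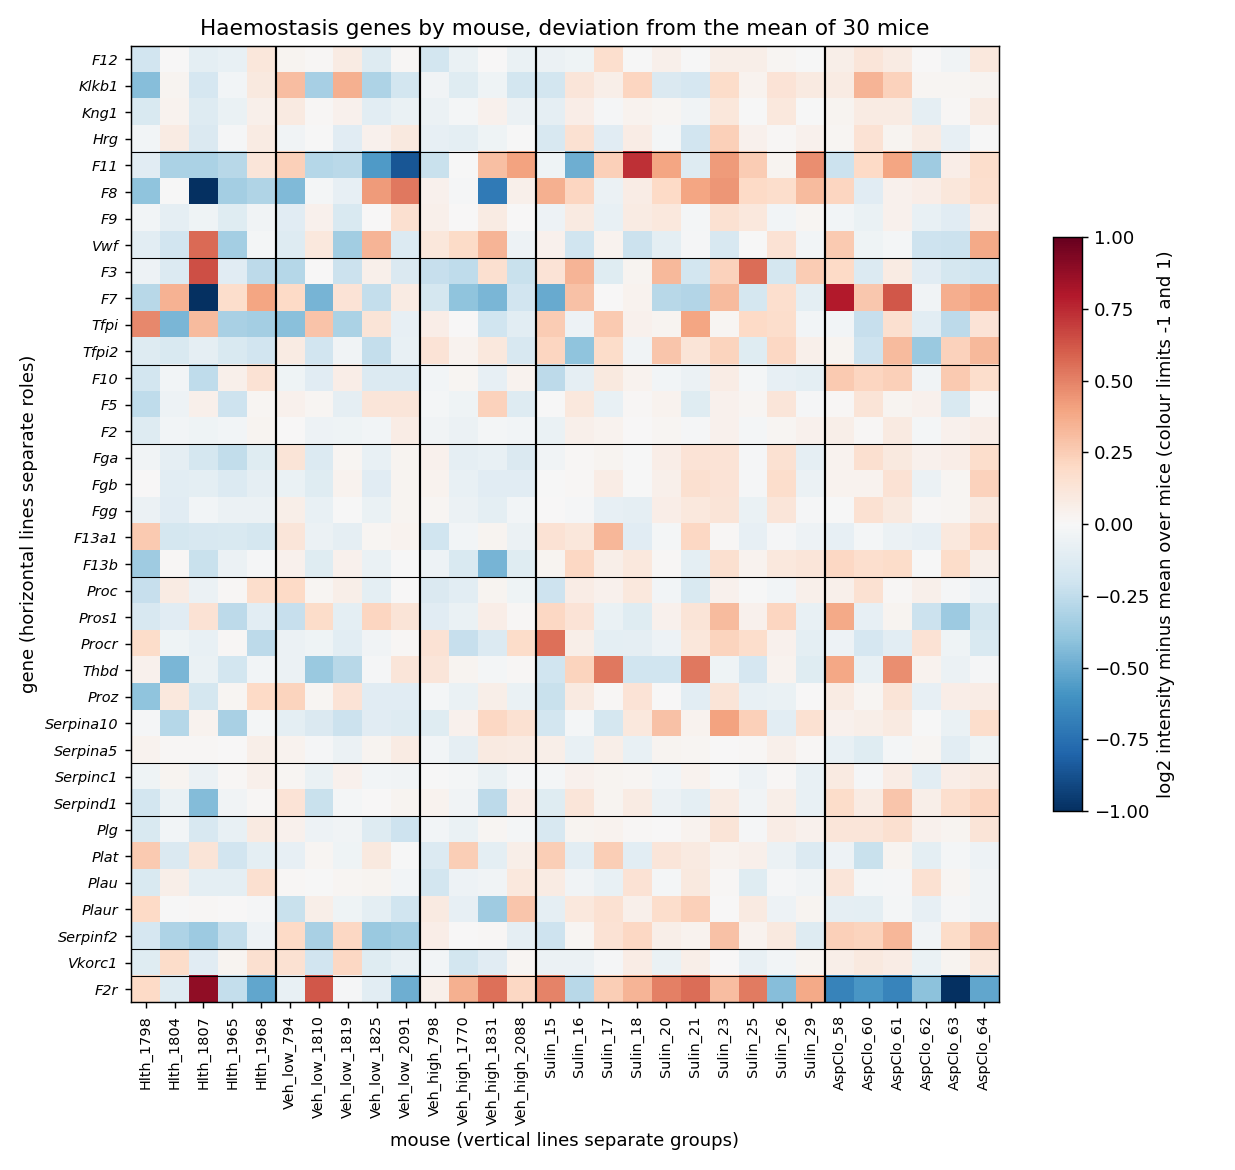
Heat map of the 36 measured genes (rows, in order of role) in the 30 mice (columns, by group), as log2 intensity minus the gene's mean over all mice; colours end at -1 and 1. Most rows are pale, and the F2r row is blue in all 6 mice given aspirin with clopidogrel.

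5 comparisons were made. In limma's test with Benjamini-Hochberg adjustment over 17097 genes, a gene passed at an adjusted p under 0.05. Between the 9 vehicle mice and the healthy mice none of the 36 passed with all arrays, where 0.0117% of all genes passed, and 2 had an unadjusted p under 0.05, which is 5.56% of them against 6.73% of all genes. For 35 of the 36 the 95% interval of the difference lay within 1.5-fold in either direction; the exception was F8. These values include the 4 arrays nearer to the other group, without which F7, Tfpi and Vkorc1 passed and the F7 difference was -0.57 in place of -0.09, as given near the end. Set against healthy mice on their own, vehicle mice without HCC gave none (0% of all genes) and vehicle mice with HCC none (0.0994%), with unadjusted p-values under 0.05 for 2 members (5.32% of all genes) and 0 members (9.26%). F9, which encodes factor IX, ran from 11.32 to 11.39 in the 4 vehicle mice with HCC and from 11.20 to 11.29 in healthy mice, so these groups did not overlap, as was so for 2.66% of all genes; the difference was 0.10 (adjusted p = 0.621 in limma's fit). Between vehicle mice with and without HCC none passed either (0.0877% of all genes did), 3 had an unadjusted p under 0.05 (8.33% against 8.87%), and the intervals of 32 members lay within 1.5-fold.

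Under sulindac none of the 36 passed against vehicle, where 0.199% of all genes passed. 5 had an unadjusted p under 0.05 and all 5 were higher, F13b, Fgb, F3, F11 and Plaur, which is 13.9% of the members against 10.4% of all genes in either direction and 5.98% higher. Among the 28 brighter members it was 3 (10.7%), against 14.2% of all genes at or above the median gene, and F3 and Plaur lay below it. A total of 31 of 36 members had a higher mean under sulindac, with a median difference of 0.07, against 9091 of 17097 and 0.01 over all genes. Among the brighter members it was 24 of 28, against 4940 of the 8549 genes at or above the median gene, whose median was 0.02. The interval lay within 1.5-fold for 35 members, all but F11. Of 9 hepatocyte markers 6 were higher, with a median of 0.02 and 0 at an unadjusted p under 0.05. All 10 endothelial markers were higher, with a median of 0.2 and 3 at that p. The part of these markers in the members' values was not tested.

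Under aspirin with clopidogrel 3 members passed against vehicle: F10 and F13b rose and F2r fell, where 1.96% of all genes passed, 0.983% higher and 0.977% lower. A further 10 had an unadjusted p under 0.05, so that 13 of 36 (36.1%) did, 11 of them higher, against 14.6% of all genes, 7.68% higher. Among the 28 brighter members it was 12 (42.9%), against 20.1% of all genes at or above the median gene. The median difference of the 36 members was 0.07. Of 9 hepatocyte markers 7 were higher, with a median of 0.05 and 2 at an unadjusted p under 0.05, and of 10 endothelial markers 9 were higher, with a median of 0.19 and 4 at that p, all of them higher; their part in the members' values was not tested. Against sulindac only F2r passed of the 36, and it was lower; 0.877% of all genes passed, 0.456% lower, and 5 members (13.9%) had an unadjusted p under 0.05 against 10.8% of all genes. With a term for high Xist none of the 36 passed in either comparison, where 0.0468% of all genes passed against vehicle and 0.351% against sulindac, and an unadjusted p under 0.05 was found for 4 of 36 members against vehicle (8.16% of all genes) and for 2 of 36 against sulindac (10.6% of all genes). That term changed the sign of the difference for 9 members against vehicle and 7 against sulindac, none of which had passed. All comparisons with vehicle share the same 9 mice, and those on aspirin with clopidogrel share the same 6. On the probe set used for each gene, no member had groups that were fully apart in any of the 5 comparisons. Over all genes this separation was found in 0.117% for diet, 3% for HCC and 0.0702% for sulindac. For aspirin with clopidogrel it was 0.392% against vehicle and 0.328% against sulindac. A second F2r probe set, given below, did separate these groups. In bulk tissue fewer cells of a type and less RNA per cell cannot be told apart.

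**Figure D2:**
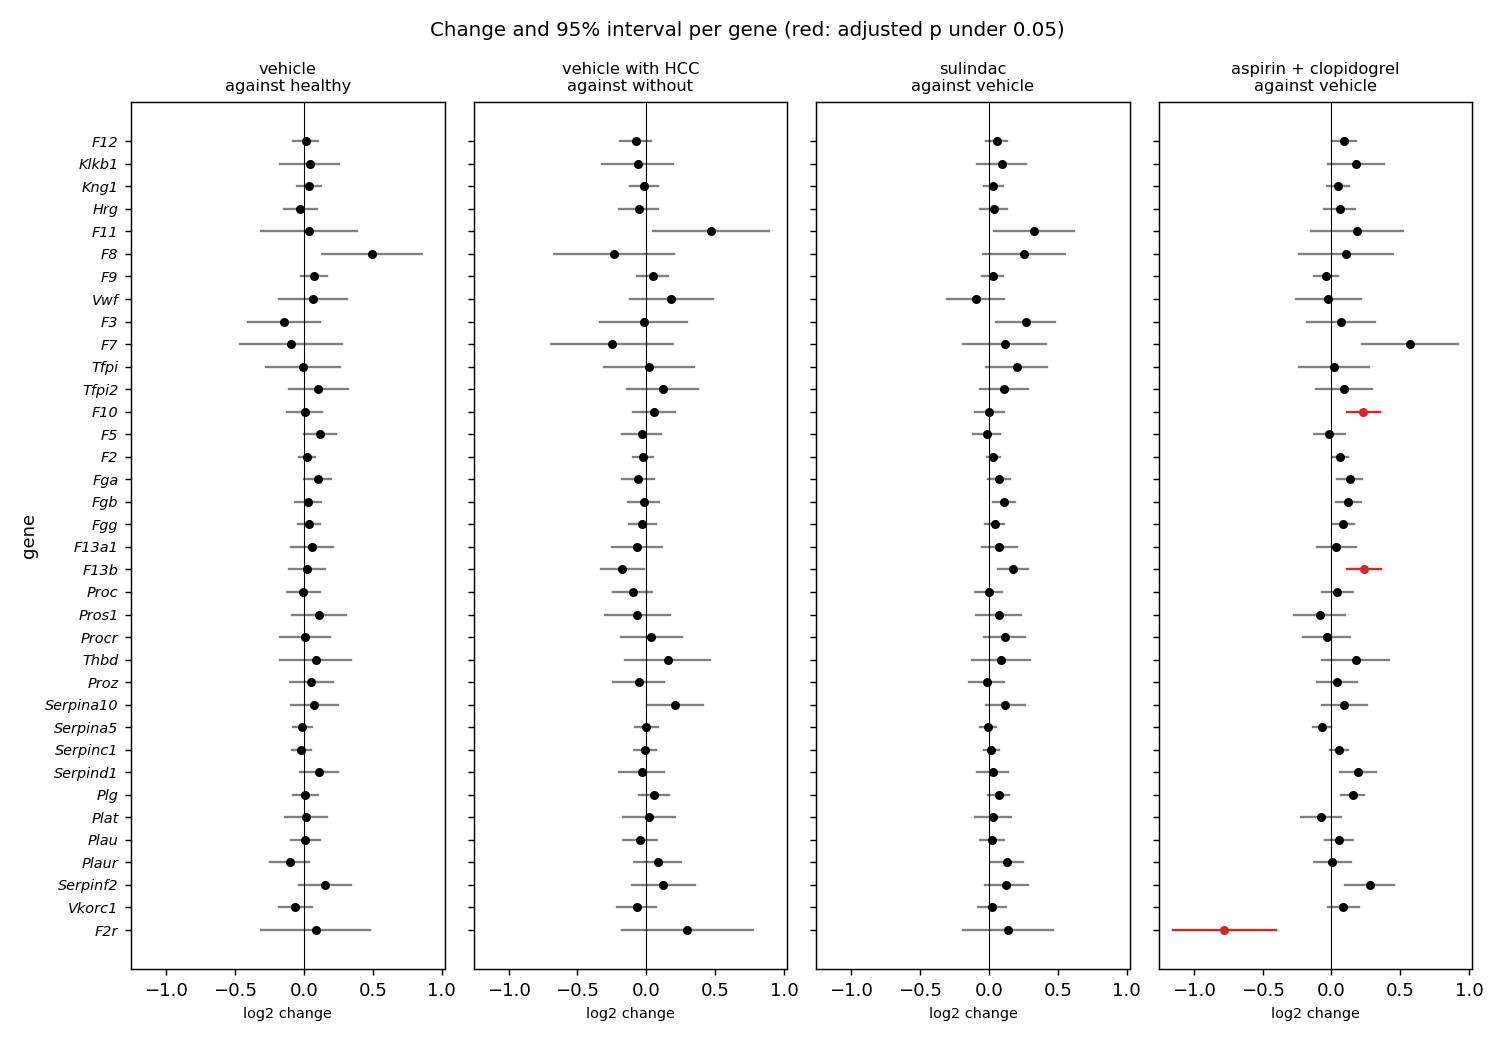
Difference in mean log2 intensity (point) with its 95% interval (line) for each of the 36 genes in 4 comparisons; red marks an adjusted p under 0.05 in limma's test. F10, F13b and F2r are red against vehicle under aspirin with clopidogrel, and no gene is red in the other 3 panels.

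F2r encodes PAR1, the receptor that thrombin opens by cutting its outer end. Its level was 10.27, 9.94, 9.83, 9.55 and 10.96 in healthy mice, 10.70, 9.97, 9.59, 10.00 and 10.06 in vehicle mice without HCC, and 10.12, 10.42, 10.62 and 10.28 in those with HCC. Under sulindac it ran from 9.65 through a median of 10.43 to 10.63. Under aspirin with clopidogrel it ran from 8.97 through 9.45 to 9.66. Of the 6 mice given aspirin with clopidogrel, 5 lay below every vehicle mouse and 5 below every sulindac mouse, and AspClo_62, at 9.66, overlapped with both. In limma's fit F2r fell by 0.78 on the log2 scale against vehicle (SE 0.18, 95% interval -1.15 to -0.40, adjusted p = 0.0238), a 1.72-fold lower intensity. Against sulindac it fell by 0.92 (SE 0.18, interval -1.29 to -0.55, adjusted p = 0.0102), 1.89-fold lower.

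The 4 mice with high Xist had a mean F2r level of 9.33 and the other 2 mice of the group 9.58 (9.49 in AspClo_60 and 9.66 in AspClo_62). With the term for high Xist the difference from vehicle was -0.62 (SE 0.27, adjusted p = 0.562) and from sulindac -0.76 (SE 0.27, adjusted p = 0.262). The call against vehicle was also lost when AspClo_58, AspClo_61 or AspClo_63 was left out, with an adjusted p of up to 0.070 and a difference of -0.69 to -0.86 over the 15 mice left out in turn. Against sulindac it passed without each of 16 mice (adjusted p 0.00498 to 0.0399). F2r did not separate the vehicle mice from the healthy mice (0.09, adjusted p = 0.985) or those with HCC from those without (0.30, adjusted p = 0.784).

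A second probe set for F2r also had its lowest group mean under aspirin with clopidogrel, 8.23 against 8.88 to 9.20 in the other 4 groups. Its difference was -0.79 against vehicle (adjusted p = 0.0051 over 28898 probe sets) and -0.97 against sulindac (adjusted p = 0.00208). These were -0.71 (adjusted p = 0.300) and -0.88 (adjusted p = 0.0803) with the term for high Xist. F2rl1, which encodes PAR2 and neighbours F2r on chromosome 13, was not analysed here.

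**Figure D3:**
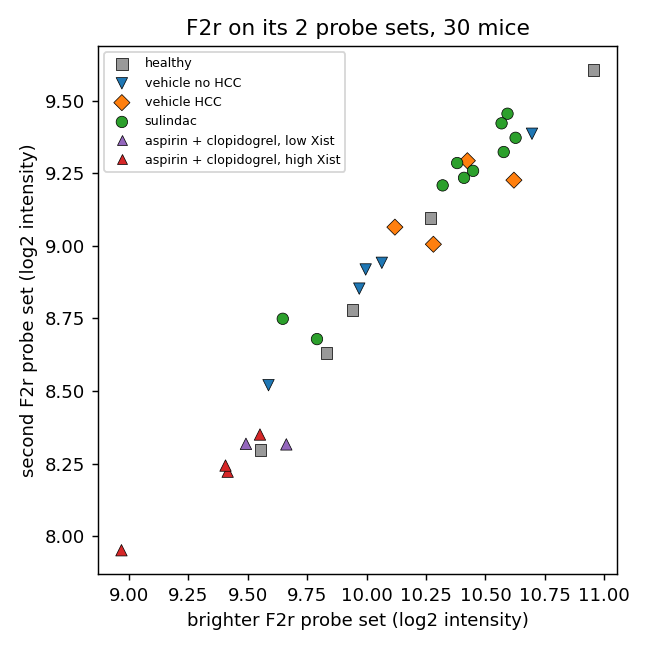
Log2 intensity of F2r on its brighter probe set (horizontal) and its second probe set (vertical), 1 point per mouse. All 6 mice given aspirin with clopidogrel lie at or below 9.66 on the brighter probe set, and 1 healthy, 1 vehicle and 1 sulindac mouse share that range.

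Factor X (F10) is the protease that, with factor V, converts prothrombin to thrombin. It measured 11.33, 11.49, 11.56, 11.66 and 11.26 in healthy mice, 11.40, 11.37, 11.38, 11.47 and 11.58 in vehicle mice without HCC, and 11.49, 11.53, 11.43 and 11.54 in those with HCC. Under sulindac it ran from 11.25 through 11.47 to 11.61, and under aspirin with clopidogrel from 11.47 through 11.74 to 11.77. In the latter, 5 of 6 mice stood above every vehicle and every sulindac mouse, and AspClo_62 stood within both. F10 rose by 0.23 against vehicle (SE 0.059, adjusted p = 0.0348, 1.17-fold), and all 3 of its probe sets were higher. Its difference from sulindac was as large at 0.23 and did not pass (adjusted p = 0.0514). With the term for high Xist both differences were 0.13 (adjusted p = 0.716 and 0.642), and the call against vehicle was lost without any 1 of 9 of the 15 mice: Veh_low_1810, Veh_low_1825, Veh_low_2091, Veh_high_1831 or any mouse of the group but AspClo_62 (adjusted p up to 0.103).

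The other members of the common pathway differed less. Prothrombin (F2) averaged 12.49 ± 0.055 (SD, n = 5) in healthy mice, 12.51 ± 0.039 (n = 9) in all vehicle mice, 12.54 ± 0.037 (n = 10) under sulindac and 12.58 ± 0.039 (n = 6) under aspirin with clopidogrel. Its difference from vehicle in the last group was 0.06 (interval 0.01 to 0.12, adjusted p = 0.265), and 0.02 with the term for high Xist. Factor V (F5), the cofactor of factor X, had group means between 11.26 and 11.39.

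Fibrinogen is built from 3 chains, encoded by Fga, Fgb and Fgg. Fga measured 12.39, 12.33, 12.18, 12.30 and 12.24 in healthy mice, 12.28, 12.34, 12.45, 12.55 and 12.44 in vehicle mice without HCC, and 12.46, 12.33, 12.34 and 12.28 in those with HCC. Its range was 12.33 to 12.57 under sulindac (median 12.44) and 12.46 to 12.60 under aspirin with clopidogrel (median 12.50). Both drug arms overlapped with vehicle and had the highest means.

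Fgb measured 12.85, 12.74, 12.71, 12.76 and 12.74 in healthy mice, 12.72, 12.73, 12.87, 12.78 and 12.88 in vehicle mice without HCC, and 12.88, 12.77, 12.73 and 12.73 in those with HCC. It ran from 12.78 through 12.87 to 13.02 under sulindac and from 12.79 through 12.88 to 13.07 under aspirin with clopidogrel. Fgg averaged 12.72 ± 0.032 (n = 5) in healthy mice, 12.76 ± 0.054 (n = 9) in vehicle mice, 12.80 ± 0.084 (n = 10) in sulindac mice and 12.84 ± 0.063 (n = 6) under aspirin with clopidogrel. No chain passed the test. Against vehicle the 3 differences under aspirin with clopidogrel were 0.13 for Fga (adjusted p = 0.133), 0.12 for Fgb (adjusted p = 0.158) and 0.09 for Fgg (adjusted p = 0.275) in limma's fit. With the term for high Xist they were 0.14 (adjusted p = 0.625), 0.04 (adjusted p = 0.916) and 0.11 (adjusted p = 0.655), so that the Fgb difference was smaller and the others were not. Under sulindac Fgb differed by 0.11 (adjusted p = 0.260), and between the drug arms by 0.01 (adjusted p = 0.953), or -0.07 with that term (adjusted p = 0.799).

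**Figure D4:**
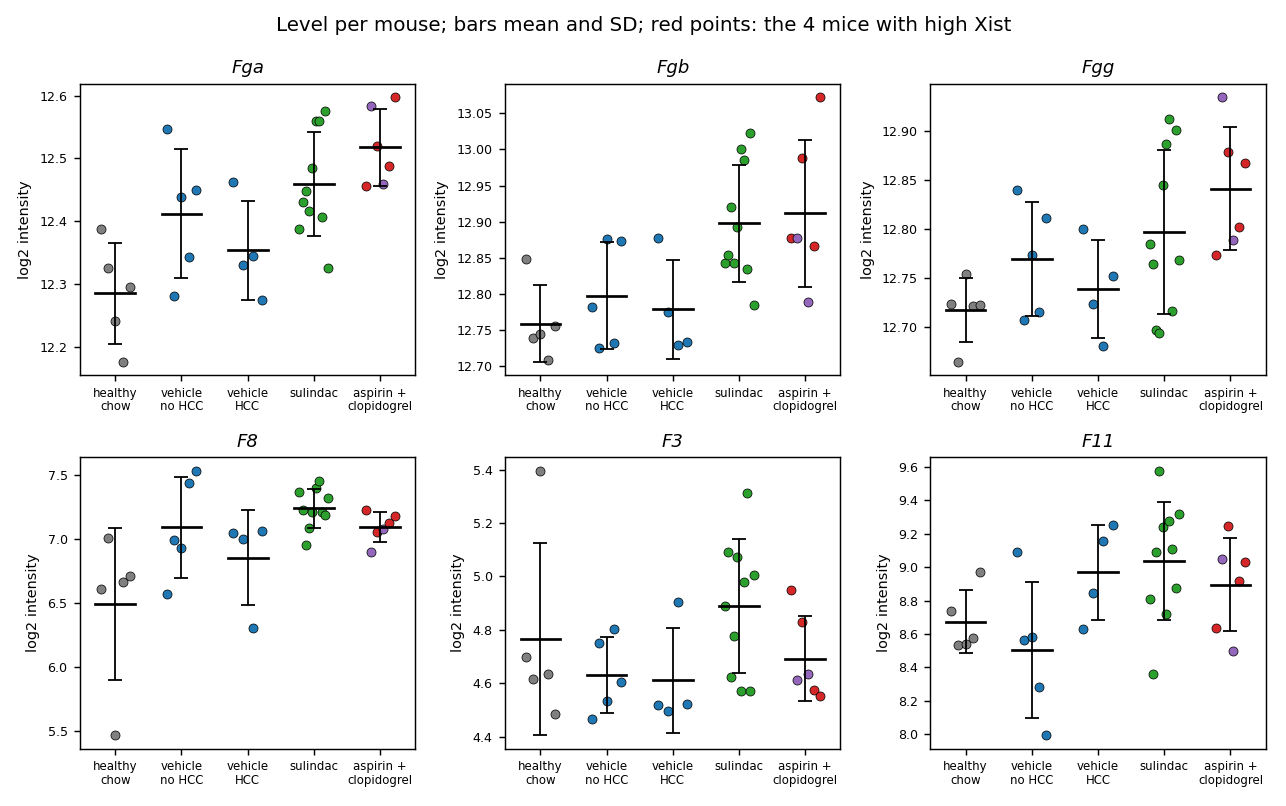
Log2 intensity of the 3 fibrinogen genes and of F8, F3 and F11 in each mouse by group, with mean and SD; axes differ between genes, and red points are the 4 mice with high Xist. The fibrinogen genes span 12.18 to 13.07 in all 30 mice, and F8 has low values in Hlth_1807 (5.46) and Veh_high_1831 (6.30).

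F13b encodes the carrier subunit of factor XIII, the enzyme that crosslinks fibrin. It measured 10.98, 11.35, 11.28, 11.32 and 11.11 in healthy mice, 11.21, 11.27, 11.33, 11.38 and 11.38 in vehicle mice without HCC, and 11.28, 11.18, 10.87 and 11.21 in those with HCC. Sulindac mice ran from 11.24 through 11.42 to 11.54 and mice given aspirin with clopidogrel from 11.33 through 11.51 to 11.54. All mice of the drug arms but Sulin_21, at 11.24, lay above the vehicle median of 11.27, and 5 of 6 mice given aspirin with clopidogrel stood above every vehicle mouse. F13b rose by 0.24 under aspirin with clopidogrel (SE 0.059, adjusted p = 0.0345, 1.18-fold). Its difference under sulindac was 0.17 (SE 0.052, adjusted p = 0.163), and the drug arms differed by 0.06 (adjusted p = 0.784), or 0.01 with the term for high Xist.

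With the term for high Xist the F13b difference under aspirin with clopidogrel was 0.18 (adjusted p = 0.606). The call was lost without any 1 of Veh_low_1810, Veh_high_1770, Veh_high_1831, AspClo_58, AspClo_60, AspClo_61, AspClo_63 or AspClo_64 (adjusted p up to 0.102 over the 15 mice). Between vehicle mice with and without HCC it differed by -0.18 (adjusted p = 0.473). F13a1, the catalytic subunit, which macrophages and megakaryocytes make, lay below the median gene with group means of 4.26 to 4.39.

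Factor VII (F7) starts clotting when it meets tissue factor. It measured 9.61, 10.23, 10.06, 10.28 and 8.88 in healthy mice, 9.42, 9.64, 9.97, 10.09 and 10.02 in vehicle mice without HCC, and 9.71, 9.48, 9.43 and 9.70 in those with HCC. It ran from 9.38 through 9.84 to 10.20 under sulindac and from 9.85 through 10.27 to 10.68 under aspirin with clopidogrel. The mean under aspirin with clopidogrel was the highest of the 5 groups, and 5 of its 6 mice stood above every vehicle mouse. The difference from vehicle was 0.57 (SE 0.17, 95% interval 0.22 to 0.92) and did not pass (adjusted p = 0.0784). F7, F10 and Proz, which encodes protein Z, are neighbours on chromosome 8. The Proz differences from vehicle were 0.04 on the probe set used (adjusted p = 0.844), or -0.04 with the term for high Xist, and 0.37 on its second probe set.

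With the term for high Xist the F7 difference was 0.28 (adjusted p = 0.818), since the 4 mice with high Xist averaged 10.43 and the other 2 mice 10.00. The lowest healthy value, 8.88, came from Hlth_1807, one of the arrays nearer to the other group. Without the 4 such arrays F7 was lower in vehicle mice than in healthy mice by a difference of -0.57 (adjusted p = 0.0399), against -0.09 (adjusted p = 0.978) in all mice.

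Tissue factor itself (F3) lay below the median gene. It measured 4.70, 4.62, 4.64, 4.49 and 5.40 in healthy mice, 4.75, 4.80, 4.61, 4.47 and 4.53 in vehicle mice without HCC, and 4.52, 4.50, 4.91 and 4.52 in those with HCC. Under sulindac it ran from 4.57 through 4.94 to 5.31 and under aspirin with clopidogrel from 4.55 through 4.62 to 4.95. The sulindac mice had the highest median, and the ranges overlapped. The sulindac difference was 0.27 (adjusted p = 0.342). Of the inhibitors of this step, Tfpi had group means of 5.38 to 5.59 and Tfpi2 of 10.29 to 10.51. Tfpi was 0.20 higher under sulindac than in vehicle mice on the probe set used (adjusted p = 0.552 over 28898 probe sets in limma's fit). Its other probe sets were higher by 0.31, 0.33 and 0.18 (adjusted p = 0.147, 0.188 and 0.387). Within the mice given aspirin with clopidogrel Tfpi2 was 0.52 higher in the 4 with high Xist than in the other 2 (adjusted p = 0.0424 in limma's fit). It was the only member to pass there, where 1.71% of all genes passed. Its difference from vehicle changed sign from 0.09 (adjusted p = 0.744) to -0.25 (adjusted p = 0.596) with the term for high Xist.

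**Figure D5:**
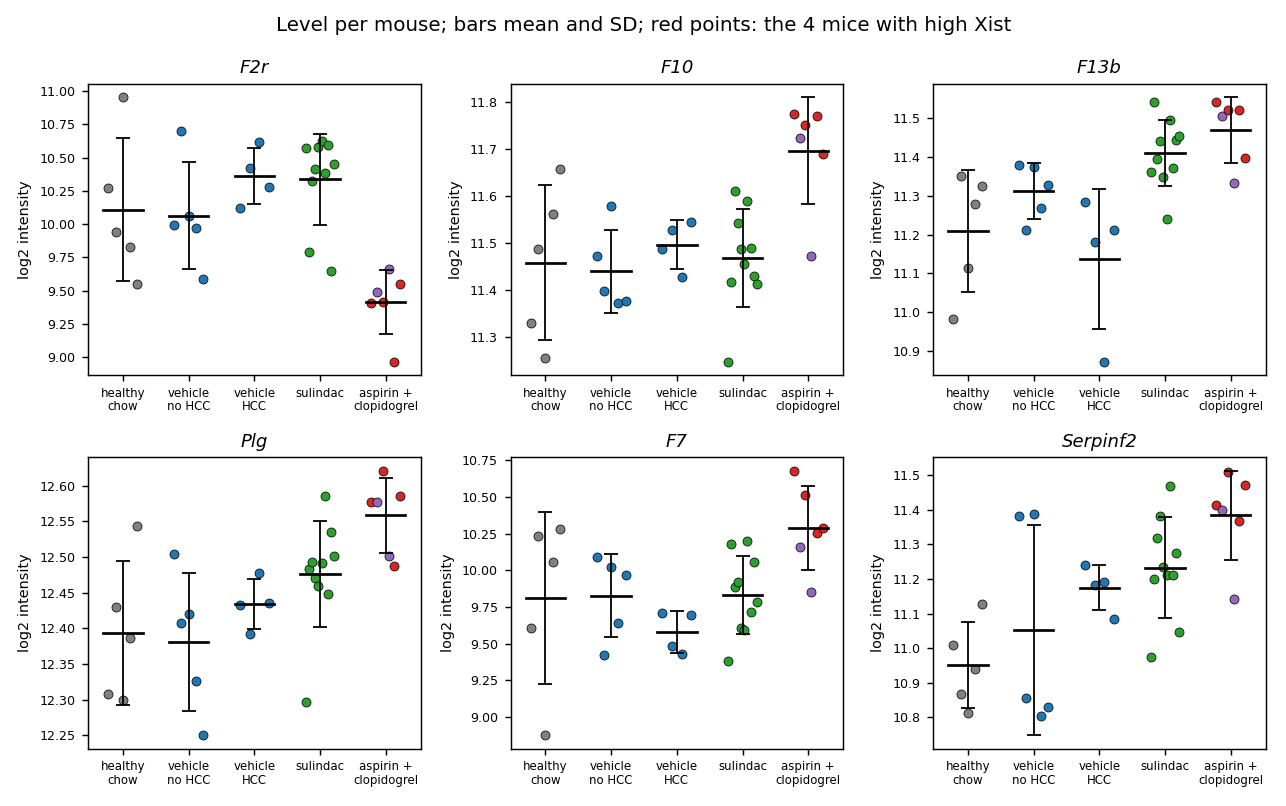
Log2 intensity of F2r, F10, F13b, Plg, F7 and Serpinf2 in each mouse by group, with mean and SD; axes differ between genes, and red points are the 4 mice with high Xist. AspClo_62 is the mouse nearest to vehicle among the 6 for F2r (9.66), F10 (11.47), F13b (11.33), F7 (9.85) and Serpinf2 (11.14).

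Of the intrinsic factors, factor XI (F11) is the protease that activates factor IX. It measured 8.74, 8.53, 8.58, 8.97 and 8.54 in healthy mice, 8.56, 8.28, 7.99, 9.09 and 8.58 in vehicle mice without HCC, and 8.63, 8.85, 9.15 and 9.25 in those with HCC. Sulindac mice ran from 8.36 through 9.10 to 9.58 and mice given aspirin with clopidogrel from 8.50 through 8.97 to 9.24. The vehicle mice with HCC averaged 0.47 above those without (interval 0.05 to 0.89, adjusted p = 0.491) and sulindac mice 0.33 above all vehicle mice (adjusted p = 0.402); the ranges overlapped in both.

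Factor VIII (F8), the cofactor of factor IX, is made mainly by endothelial cells. It measured 6.61, 7.01, 6.67, 6.71 and 5.46 in healthy mice, 6.99, 7.44, 7.53, 6.57 and 6.93 in vehicle mice without HCC, and 7.05, 7.0, 6.30 and 7.06 in those with HCC. Under sulindac it ran from 6.95 through 7.22 to 7.45 and under aspirin with clopidogrel from 6.90 through 7.10 to 7.22. The healthy mean was the lowest, and the vehicle mice averaged 0.50 above them (SE 0.18, adjusted p = 0.586). The summed intensity of 10 endothelial markers ran from 1845 to 2797 in healthy mice, 1944 to 3452 in vehicle mice, 2728 to 3424 under sulindac and 2734 to 3809 under aspirin with clopidogrel, and its part in the F8 difference was not tested. Factor IX (F9) had group means of 11.25 to 11.35. Vwf, which carries factor VIII in plasma, had group means of 5.01 to 5.21.

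The contact system members F12, Klkb1 (prekallikrein) and Kng1 (kininogen) had group means of 11.42 to 11.56, 11.24 to 11.47 and 12.55 to 12.63. Hrg, which was only grouped with them here, had group means of 12.18 to 12.27. None of the 4 passed in any of the 5 comparisons. Kng1 differed from vehicle under aspirin with clopidogrel by 0.05, or 0.01 with the term for high Xist. On its second probe set the difference was 0.18 without that term (adjusted p = 0.155 over 28898 probe sets in limma's fit). F12 differed by 0.09 from vehicle under aspirin with clopidogrel (adjusted p = 0.318) and by 0.10 with the term for high Xist (adjusted p = 0.731).

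Of the inhibitors of thrombin, heparin cofactor II (Serpind1) measured 11.22, 11.34, 11.37, 11.42 and 10.97 in healthy mice, 11.18, 11.41, 11.44, 11.54 and 11.39 in vehicle mice without HCC, and 11.44, 11.37, 11.14 and 11.48 in those with HCC. It ran from 11.29 through 11.40 to 11.53 under sulindac and from 11.47 through 11.58 to 11.68 under aspirin with clopidogrel. In the latter 4 of 6 mice stood above every vehicle mouse. The difference from vehicle was 0.20 (SE 0.063, adjusted p = 0.107) and 0.10 with the term for high Xist (adjusted p = 0.823). Antithrombin (Serpinc1) averaged 12.56 ± 0.049 (n = 5) in healthy mice, 12.54 ± 0.036 (n = 9) in vehicle mice, 12.56 ± 0.038 (n = 10) in sulindac mice and 12.60 ± 0.078 (n = 6) with aspirin and clopidogrel. In the 4 mice with high Xist it was 0.14 higher than in AspClo_60 and AspClo_62. Its difference from vehicle was 0.05 (adjusted p = 0.432) and turned to -0.04 with the term for high Xist (adjusted p = 0.862).

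In the protein C and protein Z systems none of the 7 measured members passed in any of the 5 comparisons. Protein C (Proc), the protease that inactivates factors V and VIII, had group means of 11.61 to 11.71, and its cofactor protein S (Pros1) 8.78 to 8.97. Serpina10, the protein Z-dependent inhibitor of factor X, was 0.21 higher in vehicle mice with HCC than without (adjusted p = 0.554). Thbd, Procr and Serpina5 lay below the median gene.

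In the fibrinolytic arm plasminogen (Plg) measured 12.31, 12.43, 12.39, 12.54 and 12.30 in healthy mice, 12.41, 12.33, 12.25, 12.50 and 12.42 in vehicle mice without HCC, and 12.43, 12.39, 12.48 and 12.44 in those with HCC. It ran from 12.30 through 12.49 to 12.58 under sulindac and from 12.49 through 12.58 to 12.62 under aspirin with clopidogrel. All 6 mice given aspirin with clopidogrel lay above the vehicle median, 4 of them above every vehicle mouse. The difference was 0.15 (SE 0.042, adjusted p = 0.0518), and 0.13 with the term for high Xist (adjusted p = 0.596).

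Alpha-2-antiplasmin (Serpinf2), which inactivates plasmin, measured 11.01, 10.87, 10.94, 11.13 and 10.81 in healthy mice, 10.86, 10.80, 10.83, 11.38 and 11.39 in vehicle mice without HCC, and 11.24, 11.18, 11.19 and 11.08 in those with HCC. Sulindac mice ran from 10.97 through 11.22 to 11.47 and mice given aspirin with clopidogrel from 11.14 through 11.41 to 11.51. Veh_low_794 and Veh_low_1819, the vehicle arrays nearer to healthy, were the highest vehicle mice for this gene. The difference under aspirin with clopidogrel was 0.28 (SE 0.087, adjusted p = 0.0953) and 0.17 with the term for high Xist (adjusted p = 0.788). The activators Plat and Plau and the receptor Plaur lay below the median gene. Vkorc1, the vitamin K epoxide reductase whose product several of these factors need, had group means of 11.53 to 11.66.

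Leaving out the 4 arrays nearer to the other group changed which members passed. Between vehicle and healthy mice F7 (-0.57) and Vkorc1 (-0.22, adjusted p = 0.00875) were then lower and Tfpi (0.39, adjusted p = 0.0237) higher, where 5.61% of all genes passed. Against healthy mice, Tfpi and Vkorc1 passed in vehicle mice without HCC (2.95% of all genes) and F7 and Vkorc1 in those with HCC (5.01%), while no member passed between the vehicle groups (0.0819%). Under sulindac F13b passed (0.22, adjusted p = 0.0367; 0.836% of all genes). Under aspirin with clopidogrel 10 passed against vehicle, F2r lower and Klkb1, F7, F10, Fga, F13b, Serpind1, Plg, Serpinf2 and Vkorc1 higher (4.79% of all genes), and F10 and F2r passed against sulindac (2.01%). The 4 mice with high Xist are in these last fits.

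A further 22 genes that act beside these were measured of 24 listed, and none passed in any of the 5 comparisons. Unadjusted p-values under 0.05 were found for 2 genes, both higher, between vehicle and healthy mice (9.09% against 6.73% of all genes). With HCC against without there were 2, both higher (9.09% against 8.87%). Under sulindac 1 was lower (4.55% against 10.4% of all genes). Under aspirin with clopidogrel 1 was higher and 2 were lower against vehicle, where 14.6% of all genes had such a p. Against sulindac 2 were lower, where 10.8% of all genes had one. Fgl1, which encodes a fibrinogen-like protein secreted by the liver, was 0.55 higher in vehicle than in healthy mice (SE 0.15, adjusted p = 0.299) and 0.40 higher with HCC than without (adjusted p = 0.532). Its level ran from 10.98 to 11.40 in vehicle mice without HCC and from 11.48 to 11.62 in those with HCC, so these groups did not overlap, as was so for 3% of all genes. Vkorc1l1, a paralogue of Vkorc1 that also reduces vitamin K, differed under aspirin with clopidogrel by -0.41 from vehicle (adjusted p = 0.0955) and -0.44 from sulindac (adjusted p = 0.0947), and turned to 0.04 and 0.02 with the term for high Xist (adjusted p = 0.974 and 0.989). Anxa2, which with S100a10 binds plasminogen at the cell surface, differed by -1.10 and -1.27 (SE 0.58 and 0.57, adjusted p = 0.390 and 0.397), or by -1.61 and -1.78 with that term (adjusted p = 0.663 and 0.466). F2rl3, which encodes PAR4, the receptor through which thrombin acts on mouse platelets, lay below the median gene, with a mean of 4.31 over all mice. It differed by -0.10 under sulindac (adjusted p = 0.299).

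Some genes outside the set also differed between the drug arms and vehicle. Nnt averaged 9.71 ± 0.29 (n = 9) in vehicle mice, 10.68 ± 0.10 (n = 10) in sulindac mice (adjusted p = 0.000145) and 10.44 ± 0.51 (n = 6) under aspirin with clopidogrel (adjusted p = 0.00871). Its difference under aspirin with clopidogrel was 0.10 with the term for high Xist (adjusted p = 0.921). The clock gene Cry1 averaged 8.22 ± 0.75 (n = 5) in vehicle mice without HCC and 6.04 ± 0.62 (n = 4) in those with HCC, which differed (adjusted p = 0.0190 in limma's fit), so that the mean of 7.25 over all vehicle mice joins 2 levels. It was 5.70 ± 0.64 under sulindac (adjusted p = 0.00407 against all vehicle mice) and 6.20 ± 0.55 under aspirin with clopidogrel, which did not pass (adjusted p = 0.0609), both near the level of vehicle mice with HCC. Of 8 measured platelet and megakaryocyte markers 7 lay below the median gene, with summed intensities of 184 to 230 in vehicle mice, 196 to 325 under sulindac and 187 to 514 under aspirin with clopidogrel. The part of these in the results on the clotting genes was not tested.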

How the data were processed

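RNA from liver outside tumours of 30 mice was hybridised to 30 one-colour Affymetrix arrays (HT MG-430 PM), 1 for each mouse. The deposited values are linear intensity per probe set, which the authors made with RMA and quantile normalization, per the design text and per the submitters' processing notes, which name no version. Log2 was taken here. Of 45141 probe sets, 28898 name 1 gene symbol and 551 several. Each gene was read on its brightest such probe set by mean intensity, and no gene was removed for low intensity. limma 3.58.1 (R 4.3.3) was used to fit 5 group means to the 30 arrays (25 residual degrees of freedom), with the vehicle mean taken over the 9 mice, and p-values were adjusted by Benjamini-Hochberg over 17097 genes; the threshold was 0.05. The fit was tested on simulated data. Precision is limited by how many arrays each group has. The design text counts 4 vehicle mice and the labels 9; the labels were followed. The labels do not name separate litters or cages, so p-values measure the spread between these mice.

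The genes, their roles, the further list and the motifs were chosen with earlier results of these data known. Values are given for all members that passed in any comparison and then by smallest unadjusted p to 12 members; fibrinogen, prothrombin and antithrombin were added, and of the further list up to 4 genes per comparison were eligible to be named. Nnt and Cry1 were named after their values were seen. Alternatives were the mean of probe sets, brighter genes only, an offset of 32 before log2, median centring, only the compared groups, trend and robust settings, array weights, vehicle subgroups, the 4 arrays and each mouse left out. The 2 settings for high Xist were added after seeing the data. Promoters were matched by symbol for 32 of the 41 genes.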

Additional observations from a re-analysis of the deposited data

Results flagged for a closer look

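Of 180 sets of values (a gene in a group), 11 held a mouse far from the rest of its group by Dixon's criterion, which chance meets in about 1 in 20. Hlth_1807 was low for F8 (5.46, next 6.61) and high for F3 (5.40, next 4.70). Veh_high_1831 was likewise low for F8 (6.30, next 7.0) and high for F3 (4.91, next 4.52). Hlth_1798 was high for F13a1 (4.6) and Plaur (4.88). Sulin_15 was high for Procr (5.34) and low for Plg (12.30), and Sulin_17 was high for F12 (11.66). AspClo_62, a mouse with low Xist, was low for F10 (11.47, next 11.69), and AspClo_63, a mouse with high Xist, was low for F2r (8.97, next 9.41).

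F2r also differed between the drug arms, by -0.921 for aspirin with clopidogrel against sulindac in limma's fit (adjusted p = 0.0102); with the term for high Xist this was -0.76 (adjusted p = 0.262).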

How the results depend on the processing

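Between vehicle and healthy mice, and for sulindac against vehicle, no member passed under the alternatives run, except without the 4 arrays nearer to the other group (3 and 1 members). Without them each vehicle group against healthy gave 2 in place of 0; HCC against no HCC gave 0 throughout. Against vehicle, aspirin with clopidogrel gave 3 members, but 1 with centred arrays, 1 with only the compared groups, 6 with array weights, 4 with the offset of 32 (F10, F13b, F2r and Plg), 2 with only vehicle with HCC (F13b and F2r), 10 without the 4 arrays, 0 with only vehicle without HCC, and 0 both without the 4 mice with high Xist and with a term for it. With the mean of all probe sets it gave 3, of which F10 was no longer one and Plg was. Leaving out 1 mouse gave 0 to 6: 0 without AspClo_58, AspClo_61 or AspClo_63, 1 without Veh_low_1810, Veh_high_1831, AspClo_60 or AspClo_64, 5 without Veh_low_794 and 6 without AspClo_62. Against sulindac it gave 1 member, 2 with brighter genes only, the offset of 32, centring, trend and robust settings, array weights or without the 4 arrays, 0 with either Xist setting, and 1 to 2 without 1 mouse. Over all alternatives the limma adjusted p of F2r ran from 0.00568 to 0.608 against vehicle and from 0.000709 to 0.309 against sulindac, and that of F10 and F13b against vehicle from 0.00651 to 0.757 and from 0.00492 to 0.657. The cause was not tested. The 28 differences with an unadjusted p under 0.05 had 292 values under the alternatives other than leaving out 1 mouse. Of these, 258 kept their side of the threshold, 17 crossed to past it and 17 from it, with no change of sign. Leaving out 1 mouse lost the calls of aspirin with clopidogrel against vehicle 9 times for F10, 8 for F13b and 3 for F2r. In that comparison F7 crossed to past the threshold 1 time, Plg 2 times and Serpinf2 3 times. Against sulindac F10 did so 2 times. Among all 36 members the term for high Xist turned the sign of 9 differences from vehicle and 7 from sulindac. Each of these was at most 0.11 in size on the log2 scale without the term. No paired analysis was possible because the groups share no animal numbers. Fewer arrays and signal near background limit the members below the median gene.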
